A study of Arabidopsis thaliana with 2 samples.

Results

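Peroxidases and glutathione transferases were measured in leaf margins of *Arabidopsis thaliana* plants whose leaves keep growing at the edge, on 2 Affymetrix ATH1 arrays that are biological replicates of 1 group. A gene was a member if it is nuclear and its symbol has the form *GST* with a class letter and a number. A nuclear gene was also a member if its RefSeq synonyms, which hold the description text, contain peroxidase or glutathione S-transferase. Family genes that meet neither condition were not counted. The rule found 83 such genes in RefSeq, and 22 of them had a probe set of their own that the array annotation names, out of 13356 genes so measured. Of the 22, 9 were peroxidases (of 35 found by the rule) and 13 were glutathione transferases (of 48). The rule uses names only, but it was set with earlier results of these data known.

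The plants carried *35S:miR319a* and *35S:amiR-NGA*, in the ecotype Ler. The labels give the ecotype but not the genotype, which was taken from the published methods. The first transgene lowers the *CIN-TCP* growth regulators and the second the *NGA* transcription factors, both from the 35S promoter, which is active in nearly all cells rather than in the margin alone. The labels state growth in soil at 23°C with 16 h light and 8 h dark. A narrow marginal strip of older leaves was cut with scissors, so the RNA can come from the small marginal cells and from tissue beside them, and whether plants were pooled is not given in the sources used here. For leaf analyses in general the published methods describe young plants in shorter days and cooler air, which differs from the labels, and they give no age or growth condition for the array plants in particular. A wild type margin was not part of the arrays used here, and every value below is a level in this 1 genotype and no effect of the transgenes was tested.

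Peroxidases use hydrogen peroxide to oxidize another molecule. The large plant family of class III peroxidases is secreted to the cell wall or vacuole, where its members can stiffen the wall by cross-linking lignin, suberin or extensin, or loosen it through reactive oxygen, and in leaves they are known for a part in ending cell expansion. Ascorbate peroxidases are intracellular and remove hydrogen peroxide with ascorbate as the electron donor. Glutathione transferases attach the tripeptide glutathione to reactive or foreign compounds, which are then moved to the vacuole. The tau and phi classes, specific to plants, do most of this work, and the lambda class carries a catalytic cysteine and reduces rather than conjugates its substrates.

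A peroxidase or transferase was counted as above background where its MAS5 signal, a linear intensity per probe set, was higher in both arrays than a bound of 7.21 in replicate 1 and 18.3 in replicate 2. Each bound is the 95th percentile of 6 genes of pollen, anther and root hair, of which the root hair gene *EXPA18* passed it at 8.42 and 20.4, so a signal slightly over the bound need not mean expression. The arrays share the same median over all probe sets, and their log2 signals correlated at 0.931 over the probe sets, given as a description. Of the leaf genes checked, *YAB3*, an abaxial lamina factor, was at 503.2 and 387.9 in replicates 1 and 2. *JAG*, a promoter of lamina growth, was at 173.5 and 303.5, and both were above the bound. The mesophyll genes *RCA* and *LHCB4.1* were above it too, at 1996 and 2887 and at 2105 and 3713. Margin, epidermis, xylem, phloem and endodermis markers of the lists have no named probe set here.

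The 9 peroxidases fell into a group of 3 with strong signals and a group of 6 at or near background. Only *PRXR1*, *SAPX* and *TAPX* were above the bound in both arrays, which is 33.3% of the peroxidases, against 60.1% of the 13356 genes. The median of the peroxidases' mean signals was 9.26, and that of all genes was 35.9. Of the other 6, *PRX52* and *PRX71* were above the bound in replicate 1 only and 4 were below it in both arrays. With so few members these are counts of this list, and whether peroxidases as a family differ from other genes was not tested. With a bound that leaves out the root hair genes, *PRX52*, *PRX25* and *PRX37* passed too. That made 6 of the 9, or 66.7%, against 77.8% of all genes. In RNA from a whole strip, fewer cells that express a gene and less of its RNA per cell cannot be told apart.

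Both ascorbate peroxidases of the chloroplast were well above background. *SAPX*, which encodes the enzyme of the stroma, had a signal of 663.5 in replicate 1 and 321.2 in replicate 2, with a mean of 492.3 ± 242.1 (SD, n = 2 arrays). *TAPX*, which encodes the enzyme bound to the thylakoid membrane, was at 320.2 and 286.5, with a mean of 303.4 ± 23.8 (SD, n = 2). The lower of the 2 signals was 17.5 times the bound of its array for *SAPX* and 15.6 times for *TAPX*. No other ascorbate peroxidase of the 8 found by the rule has a named probe set here, and none of the 8 glutathione peroxidases or the 2 thioredoxin-dependent peroxidases does.

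Among 7 measured class III peroxidases, of 16 found by the rule, 1 was above the bound in both arrays. That is 14.3% of them, against 60.1% of all genes. *PRXR1* had a signal of 1677 in replicate 1 and 2873 in replicate 2, with a mean of 2275 ± 845.4 (SD, n = 2), or 232.5 and 156.9 times the bounds of the arrays. It stood far above the other 6, whose signals ranged from 0.385 to 11.8 in replicate 1 and from 1.62 to 13.1 in replicate 2. Probe sets differ in brightness, so this order of signals is not an order of transcript numbers.

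The 6 low class III peroxidases include those known for work in lignified walls. *PRX52*, a peroxidase of lignin formation in stem fibres, was at 11.8 and 13.1, which passed the bound in replicate 1 but not in replicate 2. *PRX72*, also known from lignification, was at 0.385 and 1.85, and *PRX25*, a further stem peroxidase, was at 7.05 and 11.5. All 3 were below the bound in at least 1 array, and *PRX25* missed it in replicate 1 by little, at 0.978 times the bound. With the bound that leaves out the root hair genes, *PRX52* and *PRX25* passed in both arrays.

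Of those tied to growth and to other organs, none was above background in both arrays, though *PRX37* was with the bound that leaves out the root hair genes. *PRX71*, which is known to limit cell growth when the wall is damaged, was at 8.91 in replicate 1, above the bound there, and at 2.52 in replicate 2. *PRX37*, whose overexpression is known to dwarf plants, was at 6.73 and 10.7. *PER36*, which acts in the seed coat when mucilage is released, was at 1.17 and 1.62, in the range of the pollen and anther genes used for the bound, which ran up to 3.60 and 4.21.

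**Figure D1:**
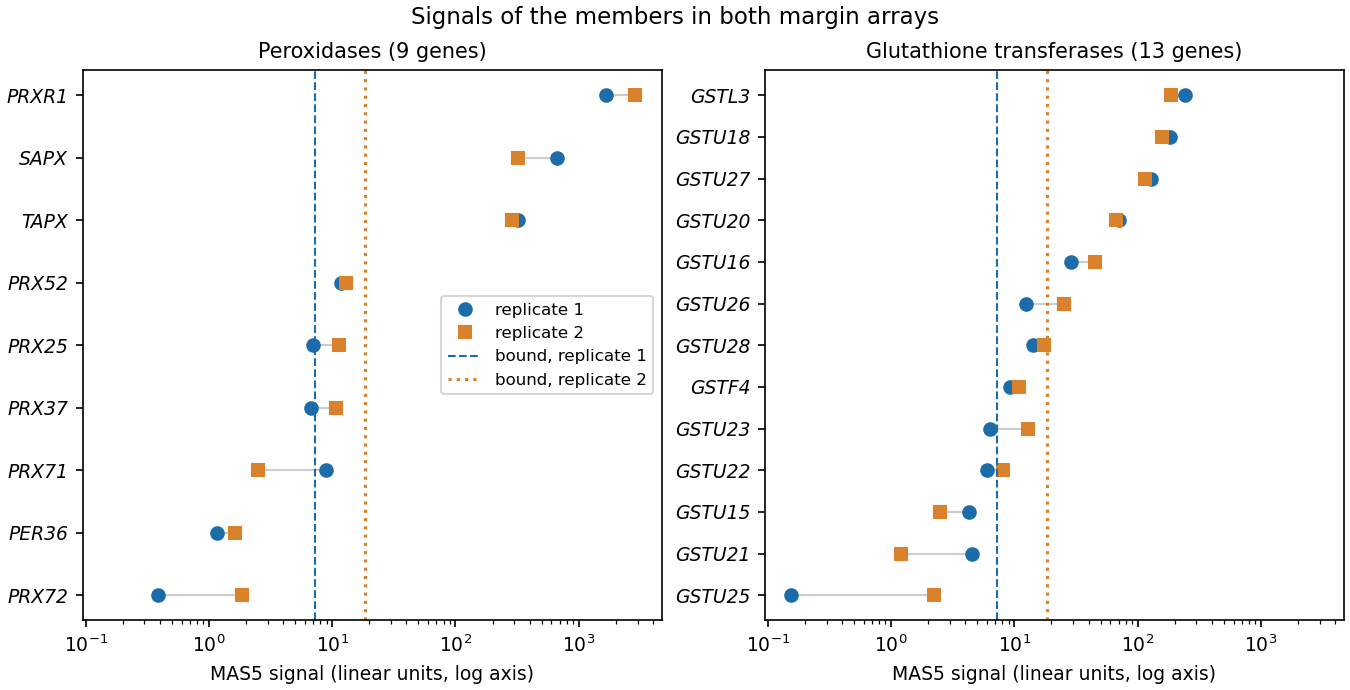
Signals of the 9 peroxidases (left) and the 13 glutathione transferases (right) in replicate 1 (circles) and replicate 2 (squares) of the margin arrays, on a log axis of MAS5 units, with the background bound of each array as a vertical line (7.21 and 18.3). *PRXR1*, *SAPX* and *TAPX* stand apart from 6 low peroxidases, and the transferases run from *GSTL3* at 243.4 and 185.0 down to *GSTU25* at 0.155 and 2.25.

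Of the 13 glutathione transferases, 6 were above the bound in both arrays, which is 46.2% of them, against 60.1% of all genes. They were *GSTL3*, *GSTU18*, *GSTU27*, *GSTU20*, *GSTU16* and *GSTU26*. The median of the transferases' mean signals was 15.8, and that of all genes was 35.9. A further 2, *GSTU28* and *GSTF4*, passed in replicate 1 only and 5 were below the bound in both arrays. The count moved with the bound. With the root hair genes left out 10 of 13 passed, 76.9% against 77.8% of all genes, and with one from the 27 *B. subtilis* controls on the array 3 did, 23.1% against 38.5%.

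The only measured lambda member, *GSTL3*, had a signal of 243.4 in replicate 1 and 185.0 in replicate 2, with a mean of 214.2 ± 41.3 (SD, n = 2). Lambda enzymes are known to reduce oxidized flavonols and other glutathione adducts. The lower of its signals, in replicate 2, was 10.1 times the bound of that array. *GSTF4*, the only measured phi member of 12 found by the rule, was at 9.18 and 10.8, above the bound in replicate 1 and below it in replicate 2. A further phi gene, *ATGSTF13*, has no description in RefSeq and a symbol of another form, so the rule leaves it out, and it was below the bound in both arrays at 6.54 and 2.59.

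Tau transferases made up 11 of the 13 members, of 27 found by the rule, and 5 of them were above the bound in both arrays. That is 45.5% of the tau genes, against 60.1% of all genes. With other bounds the count ran from 2 to 8. *GSTU18* was at 182.1 and 156.3 and *GSTU27* at 128.9 and 115.1. *GSTU20*, whose protein is known to bind the jasmonate-conjugating enzyme JAR1 (FIN219), was at 70.3 and 66.5, with a mean of 68.4 ± 2.71 (SD, n = 2). In all 3 the signal was slightly higher in replicate 1, by at most 1.16-fold.

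Near the bound the tau genes were less steady. *GSTU16* was at 28.5 and 45.5, 3.96 and 2.48 times the bounds. *GSTU26*, known for its induction by herbicides and cold, was at 12.3 and 25.1, only 1.71 and 1.37 times the bounds, and *GSTU28* just missed at 14.1 and 17.5, the second value being 0.955 times the bound. The calls of both depend on how the bound was set, as do those of *GSTU16*, *GSTU20*, *GSTU22*, *GSTU23* and *GSTF4*, while *GSTL3*, *GSTU18* and *GSTU27* were above every bound tried.

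The 5 tau genes below the bound in both arrays were *GSTU15*, *GSTU21*, *GSTU22*, *GSTU23* and *GSTU25*. Their signals ranged from 0.155 to 6.38 in replicate 1 and from 1.20 to 13.0 in replicate 2. *GSTU25*, a gene known to be induced by the explosive TNT and to act on it, was at 0.155 and 2.25. At such levels the signal is of the size of that from the pollen genes, so the 14.5-fold ratio between its arrays is no measure of a difference.

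Many transferase genes lie in rows along the chromosome, and 2 rows hold more than 1 measured gene. In RefSeq, runs of genes of the rule with at most 1 other protein-coding gene between them held *GSTU23*, *GSTU22*, *GSTU21*, *GSTU20* and *GSTU19* in this order. Of the 4 with a value, only *GSTU20* was above background, at 70.3 and 66.5, while *GSTU21* beside it was at 4.56 and 1.20. Of all genes, 60.1% were above the same bound. *GSTU22* was at 5.99 and 8.14 and *GSTU23* at 6.38 and 13.0. In a second run *GSTU26* was above the bound at 12.3 and 25.1 and its neighbour *GSTU25* was not, at 0.155 and 2.25. These calls changed with the bound. Without the root hair genes in the bound, *GSTU22* and *GSTU23* passed too, so 3 of the 4 did, as did 77.8% of all genes. With the *B. subtilis* bound, at 27.9 and 69.4, none of the genes of either row passed, against 38.5% of all genes. At each array's median signal *GSTU26* no longer passed, and 41.6% of all genes did. Whether neighbours differ more than other genes was not tested. Each of these genes has 1 probe set, annotated to it alone and without an ending that marks shared probes, and how far probes of similar copies bind each other's transcripts was not measured.

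**Figure D2:**
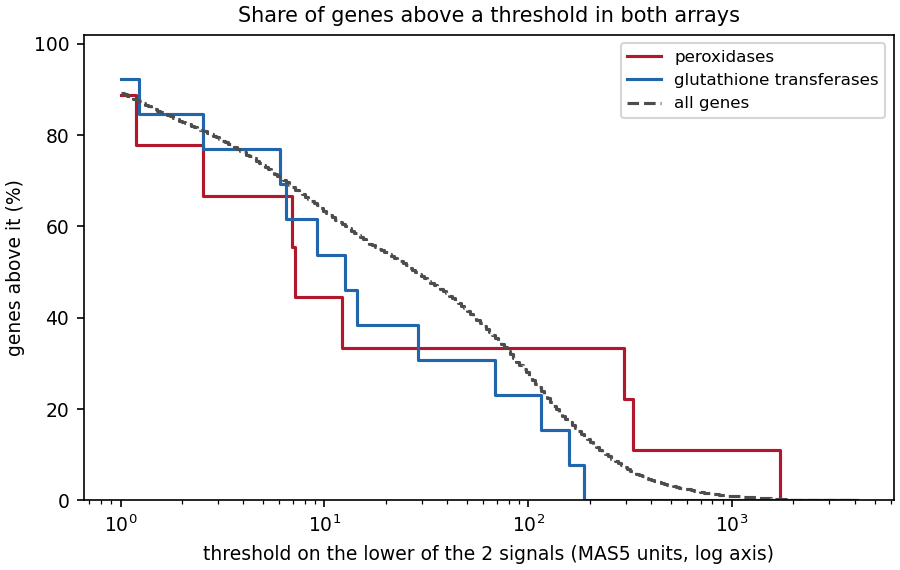
Share of peroxidases (9 genes), glutathione transferases (13 genes) and all 13356 genes whose lower signal of the 2 arrays exceeds a threshold, in percent, against the threshold on a log axis of MAS5 units. The peroxidase curve is flat from 50 to 200, where 33.3% remained above, while that of all genes declined steadily.

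The families were set against a range of thresholds applied alike to both arrays, since the bound rests on few genes. At a signal of 10, 44.4% of peroxidases, 53.8% of transferases and 63.2% of all genes were above it in both arrays. At 50 the shares were 33.3%, 30.8% and 41.6%, and at 200 they were 33.3%, 0% and 12.8%. The 3 peroxidases above 200 were those named before. No transferase reached 200 in both arrays, as *GSTL3* was at 185.0 in replicate 2.

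For context, other enzyme families of plant detoxification were counted at the same bound, but picked by symbol only and not by description. Cytochrome P450 enzymes oxidize compounds before conjugation, and UDP-glycosyltransferases attach sugars as transferases attach glutathione. Of 13 glutathione transferases 46.2% passed the bound of each array, against 48.9% of 47 *UGT* genes and 31.8% of 22 *CYP* genes. The share over all genes was 60.1%. Only *UGT* and *CYP* genes with a named probe set were counted. Their shares at other bounds are not given here, while that of the transferases ran from 23.1% to 76.9%. No difference among these families was tested.

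Measured genes of the ascorbate-glutathione cycle were above background as well, though not all act in the chloroplast as *SAPX* and *TAPX* do. In this cycle, ascorbate oxidized by ascorbate peroxidases is regenerated by monodehydroascorbate reductase and, through glutathione, by glutathione reductase. Of 10 genes listed for this cycle 3 were measured and all 3 were above the bound, which 60.1% of all genes passed. *MDAR2* was at 305.6 and 200.6, *GR1*, the cytosolic glutathione reductase, at 440.8 and 366.9 and *GR2*, the organellar one, at 435.9 and 428.3. None of the 10 listed catalase and superoxide dismutase genes and none of the 7 genes of glutathione synthesis and transport has a named probe set here.

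Of 14 listed genes that make reactive oxygen or control these enzymes, 3 were measured. *KUA1*, a MYB factor known to repress class III peroxidase genes and to promote leaf cell expansion, was above background at 117.4 in replicate 1 and 239.3 in replicate 2. *UPB1*, which represses peroxidase genes in the root, was below the bound at 1.65 and 1.09, and the NADPH oxidase gene *RBOHE*, known from the tapetum, was below it at 4.95 and 10.2. In the lignin list of 16 genes only *HCT*, an enzyme of monolignol synthesis, was measured, at 281.3 and 430.3, which is above the bound. Any relation between *KUA1* and the class III peroxidases was not tested.

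**Figure D3:**
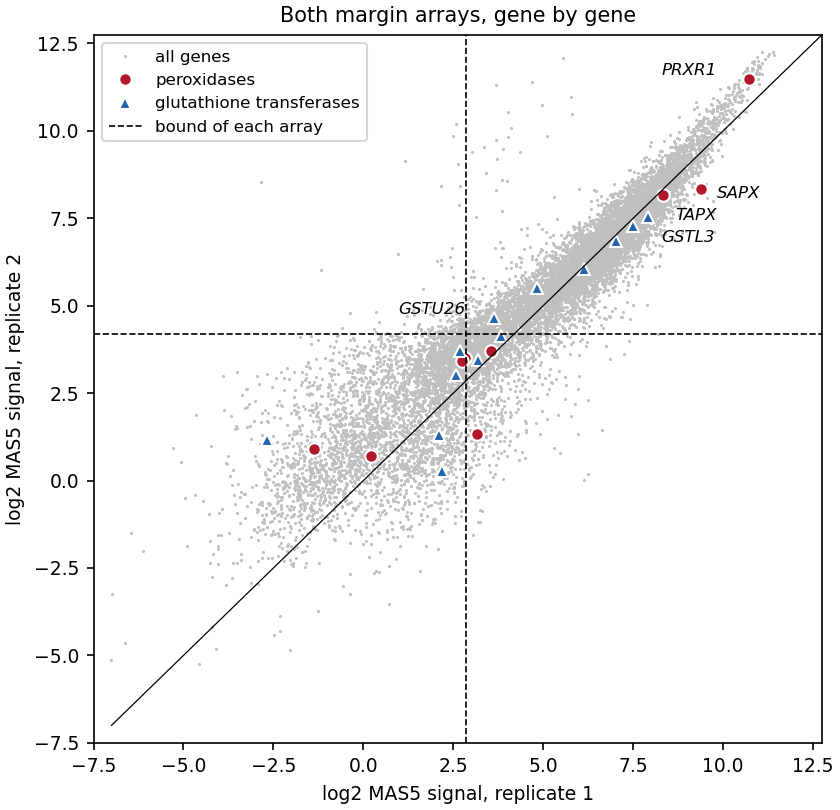
Log2 MAS5 signal in replicate 2 against replicate 1 for all 13356 genes (grey), the 9 peroxidases (circles) and the 13 glutathione transferases (triangles), with the bounds as dashed lines and equality as a solid line. *SAPX* lies below the line of equality at 663.5 and 321.2 and *PRXR1* above it at 1677 and 2873, and the members spread more widely below the bounds.

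The replicates were compared member by member to see how far a single signal can be trusted. Of the 9 members above the bound in both arrays, 2 differed by more than 2-fold, *SAPX* and *GSTU26*, and among all genes above the bound 11.3% did so. *SAPX* was 2.07-fold higher in replicate 1, and 2.93% of genes above the bound were over 2-fold higher there. *GSTU26* was 2.03-fold higher in replicate 2, or 1.60-fold after quantile normalization, which ends the call of over 2-fold. With 1 array for each replicate, these ratios have no error of their own.

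Of the 9, 3 were higher in replicate 2, namely *PRXR1*, *GSTU16* and *GSTU26*, against 60.2% of all genes above the bound. The ascorbate peroxidases and the measured genes of the ascorbate-glutathione cycle were lower in replicate 2, 5 of 5, where 60.2% of all genes above the bound were higher. Log2 ratios were -1.05 for *SAPX*, -0.16 for *TAPX*, -0.61 for *MDAR2* and -0.26 for *GR1*. *GR2*, at -0.025, was about equal in the arrays. In the deposited signals the mesophyll genes *LHCB4.1* and *RCA* went the other way, 1.76-fold and 1.45-fold higher in replicate 2. *PRXR1* was 1.71-fold higher in replicate 2, a ratio that lay between those of these 2 genes. Quantile normalization made *PRXR1* about equal in the arrays, at a log2 ratio of -0.0063. *SAPX* and *TAPX* stayed lower in replicate 2 after it, at -1.22 and -0.25. The mesophyll genes and *MDAR2*, *GR1* and *GR2* were not examined after it, so whether the opposite directions remain was not tested.

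Over all 22 members, 13 were higher in replicate 2, and 64.2% of all genes were. As a log2 ratio of replicate 2 over replicate 1, the median member stood at 0.47 among peroxidases and 0.24 among transferases, and the median gene of all at 0.28. Quantile normalization, which gives both arrays the same distribution, turned the family medians to -0.25 and -0.15, against 0.07 for all genes. After it *PRXR1* was equal in the arrays within 0.01 on the log2 scale, at -0.0063, while *SAPX* stayed lower in replicate 2 at -1.22. The ratio of 3′ to 5′ signal, which rises when RNA is degraded or labelled less completely, stood for actin at 8.10 in replicate 1 but 14.3 in replicate 2, and for GAPDH at 1.104 and 1.523. Its part in these differences, and in the low signals of members given above, was not tested.

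**Figure D4:**
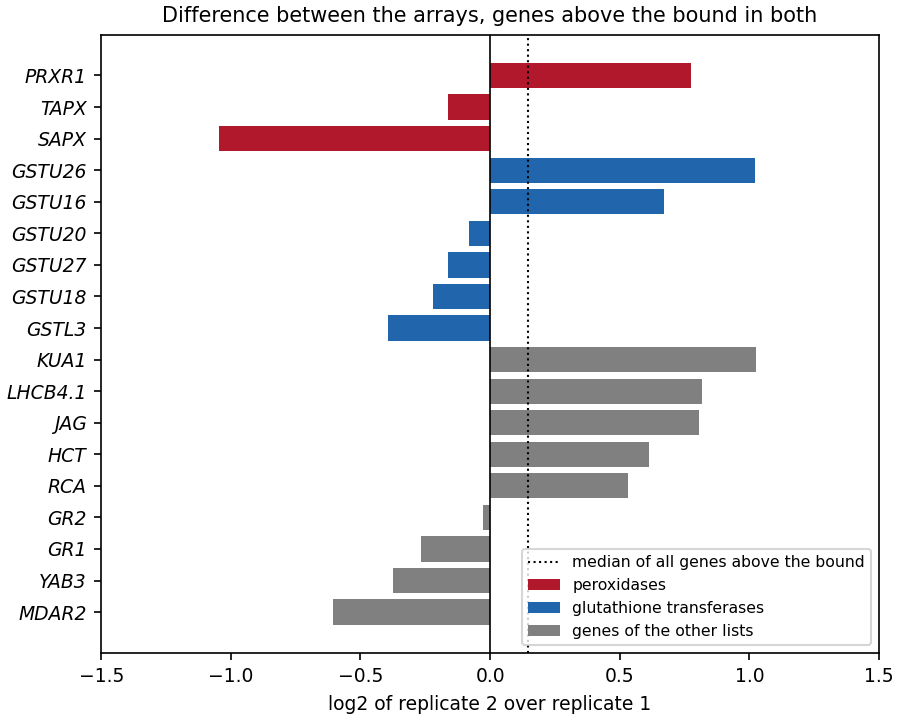
Log2 ratio of replicate 2 over replicate 1 for the 9 members above the bound in both arrays and for genes of the other lists above it, as bars from 0, with the median of all genes above the bound as a dotted line. *SAPX* (-1.05) and *MDAR2* (-0.61) were lower in replicate 2, and *GSTU26* (1.02) and *KUA1* (1.03) higher.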

How the data were processed

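Leaf margin RNA was hybridized to 2 ATH1 arrays, 1 for each biological replicate. The authors obtained and normalized 1 intensity per probe set with MAS5, with R 2.7.2 named in the submitters' processing notes. These deposited intensity values are linear and hold no detection calls. Of 22810 probe sets, 13513 had 1 gene in the array annotation, 503 had several and 8794 had none. Genes came from probe sets with 1 gene, of which 13436 were matched to RefSeq (TAIR10.1, names and gene order only), with the highest-mean probe set per gene. All 22 members had 1 probe set. With 1 group no test was run. Ratios used log2 with no pseudocount. Alternatives were other bounds, other probe sets, quantile normalization, a pseudocount of 16, a filter on low values and each array alone. The text names all 22 members, the measured genes of the fixed lists that results turn on, and *ATGSTF13*. Members, lists and bound were chosen with earlier results of these data known. The calculation was tested on simulated data. Python 3.11.15, numpy 2.4.6, pandas 2.3.3 and matplotlib 3.10.9 were used. Sequences were not analysed here. Precision is limited by having only 2 arrays.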

Additional observations from a re-analysis of the deposited data

How the results depend on the processing

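The bound limits the calls of weak members, and those of *PRXR1*, *SAPX* and *TAPX* held under all bounds tried. Leaving out the root genes lowered the bounds to 3.28 and 3.89 and gave 6 peroxidases (4 of class III) and 10 transferases (8 tau, 1 phi), with 77.8% of all genes. The *B. subtilis* controls gave 3 transferases (2 tau), with 38.5% of all genes, and the median of all probe sets gave 4 transferases (3 tau), with 41.6%. In single arrays the counts ranged from 3 to 5 for peroxidases, 1 to 3 for class III, 6 to 8 for transferases, 5 to 6 for tau and 0 to 1 for phi, with 61.2% of all genes in replicate 2 alone and 70.3% in replicate 1 alone. The median log2 signal was 3.21 for peroxidases and 3.98 for transferases. With a pseudocount of 16 it was 4.66 and 4.99, after dropping genes under the bound in each array 8.25 and 5.65, and in single arrays 3.16 to 3.52 and 3.62 to 4.13. The median log2 ratio of peroxidases changed sign to -0.25 with quantile normalization and to -0.16 after dropping genes under the bound in each array, and was 0.064 with a pseudocount of 16. That of transferases changed sign to -0.15 with quantile normalization. The cause of these moves was not tested. Other probe sets changed nothing, since each member has 1. No paired analysis was possible because there is 1 group.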

Other observations

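Measured genes of thiol-based redox control were all above the main bound in the margins. They were picked by the words thioredoxin, glutaredoxin or peroxiredoxin in their description, after signals of several had been seen. All 11 passed the bound of each array, against 60.1% of all genes, and none differed by over 2-fold between the arrays. With the *B. subtilis* bound of 69.4 in replicate 2, the thioredoxin gene *TO2* did not pass, at 65.1. Only genes with a named probe set were counted. The signal of *PRXIIF*, a mitochondrial peroxiredoxin, was 209.2 in replicate 1 and 239.5 in replicate 2, and that of the chloroplast reductase *NTRC*, which serves the 2-Cys peroxiredoxins, 395.4 and 320.0. The thioredoxin m2 gene of chloroplasts (*ATHM2*) was at 812.6 and 1096 and the glutaredoxin gene *GRXC1* at 52.5 and 70.5.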
